A study of Homo sapiens with 6 samples.

Results

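The HOX genes encode homeodomain transcription factors that give cells a position along the body axis, and all 39 of the human protein-coding HOX genes were found in the deposited table of 31016 genes. They were taken as every protein-coding row named HOXA, HOXB, HOXC or HOXD followed by a number, with no use of measured values. The HOXA cluster gave 11 genes, HOXB gave 10, HOXC gave 9 and HOXD gave 9. Poly(A) RNA came from DLD-1 cells, an established human colorectal adenocarcinoma line. TFA is a flavonoid preparation from Abelmoschus manihot, a flowering plant used in Chinese medicine. Treatment with TGF-β plus TFA made up 3 libraries (TGFb_TFA 1 to 3), and treatment with TGF-β alone made up the other 3 (TGFb 1 to 3). TGF-β, a growth factor that drives epithelial cells towards a mesenchymal state, was thus shared by both groups, and no library without it was analysed here. In each group the labels give a treatment of 24 h for replicate 1, 25 h for replicate 2 and 26 h for replicate 3. Whether the cells were in fact treated for different times is doubtful, since the hours rise by 1 with each replicate number and the design text names 24 h alone. All libraries are of 1 cell line, no dose is given in the sources used here, and no label says that the libraries came from separate cultures, so p-values measure only the spread between these libraries, which may be technical.

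HOX genes lie in 4 clusters, and within a cluster their order from the 3′ to the 5′ end follows the order of their expression domains from anterior to posterior. Genes at the same place in different clusters are paralogs and carry the same number, from 1 (anterior) to 13 (posterior). HOX proteins bind DNA with TALE cofactors of the PBX and MEIS families, Polycomb proteins keep silent HOX genes off and Trithorax proteins keep active ones on. In the gut, posterior paralogs mark the hindgut, and the HOX pattern is largely retained when adult cells divide.

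In GRCh38, the build named in the submitters' processing notes, the table places the HOXA genes on the minus strand of chromosome 7, with HOXA2 starting at 27100354 and HOXA13 ending at 27200091, and the HOXB genes on the minus strand of chromosome 17 between 48528526 and 48728750. The HOXC genes lie on the plus strand of chromosome 12 between 53938831 and 54055327, and the HOXD genes on the plus strand of chromosome 2 between 176092721 and 176190907. The clusters also carry miRNA genes. Mature sequences (RefSeq, GRCh38.p14) are shown for the miR-196 family because its hairpins lie within the HOX clusters and its seed, bases 2 to 8 in capitals, matches HOX transcripts. MIR196A1 lies in HOXB, MIR196A2 in HOXC and MIR196B in HOXA.
hsa-miR-196a-5p: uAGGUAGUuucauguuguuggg
hsa-miR-196b-5p: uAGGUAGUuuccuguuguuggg
The site in HOXB8 (DNA letters, GENCODE 29 3′ UTR) is shown for its pairing along the whole miRNA, with the stretch opposite the seed in capitals.
HOXB8 site: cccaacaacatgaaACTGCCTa
Lined up without gaps, this site held 21 Watson-Crick pairs and 1 G:U pair over the 22 bases of miR-196a-5p, and HOXB8 was the only gene with as many Watson-Crick pairs among 19043 genes scanned. The exact seed match, ACTACCT read on the transcript strand, was found in the 3′ UTRs of 9 of the 39 HOX genes (23.1%), against 7.9% of 19133 genes. HOXA5, HOXA7, HOXA9, HOXB1, HOXB6, HOXB7, HOXB13 and HOXC8 were among them, genes of high and of trace level. The seed match of miR-10a-5p, whose hairpin lies in HOXB, was found in 3 of the 39 HOX genes (7.69%), against 13.7% of 19133 genes. A match is a description of the letters, and mature miRNAs were not measured in these libraries.

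Promoters of the paralog group 13 genes HOXA13 and HOXD13, both regulators of hindgut and distal limb, are shown as a pair of paralogs of unlike level: HOXA13 averaged 8.56 FPKM and HOXD13 averaged 0.301 FPKM over the 6 libraries. FPKM scales fragments to transcript length and library total, so levels of different genes may be set side by side. Each sequence runs from 250 bases before to 50 bases after the RefSeq start (GRCh38.p14), and capitals mark CpG dinucleotides. HOXA13 is at chr7:27200042-27200341 on the minus strand and HOXD13 at chr2:176092471-176092770 on the plus strand.
HOXA13 promoter: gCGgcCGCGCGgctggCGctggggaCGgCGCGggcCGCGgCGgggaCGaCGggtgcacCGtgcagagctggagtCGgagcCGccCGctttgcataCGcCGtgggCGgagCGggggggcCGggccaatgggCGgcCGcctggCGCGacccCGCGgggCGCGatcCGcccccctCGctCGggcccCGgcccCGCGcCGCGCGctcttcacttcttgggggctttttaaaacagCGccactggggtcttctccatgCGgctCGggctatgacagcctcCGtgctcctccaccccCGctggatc
HOXD13 promoter: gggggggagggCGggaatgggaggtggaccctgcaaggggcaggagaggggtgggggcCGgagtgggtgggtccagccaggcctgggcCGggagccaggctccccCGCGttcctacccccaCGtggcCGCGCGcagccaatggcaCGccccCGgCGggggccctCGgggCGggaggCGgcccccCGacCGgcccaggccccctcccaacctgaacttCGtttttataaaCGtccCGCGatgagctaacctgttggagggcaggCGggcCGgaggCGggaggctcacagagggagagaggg
HOXA13 held 44 CpG in these 300 bases, at an observed-to-expected ratio of 1.01, and HOXD13 held 24, at a ratio of 0.60. RefSeq promoters were matched for 20 of the 39 genes, of which HOXB1 was the only HOXB gene, and HOXC4 and HOXC5 shared a promoter. Some RefSeq starts lay far from the deposited start of the gene, up to 20695 bases in HOXD3. The median of the 20 was 24.5 CpG, against 14 over all 35116 promoters of the table. The 6 matched HOX genes at a mean of 1 FPKM or more had a median of 27 CpG (13 to 44), and the 14 below it had 23.5 (4 to 36). HOXA13 thus held the most of all, and HOXA10, at 17.4 FPKM the highest gene of HOXA, held 25. The letters TTTATG, which the intestinal factor CDX2 can bind, were present on either strand in 2 of the 20 HOX promoters (10%), against 10.58% of all promoters. GCGTG, the core letters bound by the aryl hydrocarbon receptor, was present in 10 of 20 (50%), against 36.54% of all. It was present in 2 of the 6 at 1 FPKM or more (33.33%) and in 8 of the 14 below it (57.14%). The 6 were all HOXA genes, so this split by level is in large part a split by cluster. The promoter that HOXC4 and HOXC5 share holds GCGTG and counts for each gene among the 14. The letters GCGTG hold a CpG, and the part of CpG content in their share was not tested.

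The positional code was on in HOXA and HOXB and low or at trace level in HOXC and HOXD. A mean of 1 FPKM or more over the 6 libraries was reached by 16 genes: 8 of 11 in HOXA, 8 of 10 in HOXB, none of 9 in HOXC and none of 9 in HOXD. Another 13 genes, from all 4 clusters, lay between 0.1 and 1 FPKM, and the last 10 lay above 0 but under 0.1 FPKM. In 30 genes every library was above 0, and 9 genes were listed at 0 in some libraries. The clusters' shares did not overlap, apart from those of HOXC and HOXD: HOXB held 53.4% to 55.8% of all HOX FPKM in a library and HOXA 42.9% to 44.9%, whereas HOXC held 0.583% to 0.812% and HOXD 0.708% to 1.21%.

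**Figure D1:**
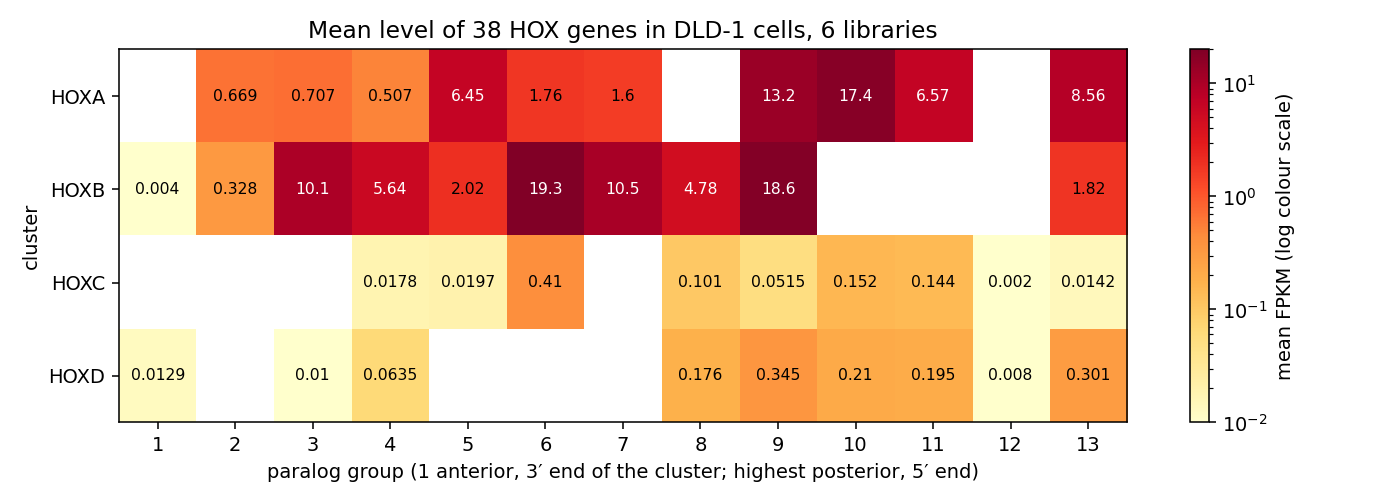
Mean FPKM over the 6 libraries (number in each cell, colour on a log scale) by cluster (rows) and paralog group (columns); blank cells are places with no gene shown. All genes at 1 FPKM or more lie in HOXA and HOXB, and the highest cell of HOXC or HOXD is HOXC6 at 0.410 FPKM.

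Within HOXA the level was weighted to the posterior end. Summed mean FPKM was 10.3 over paralogs 4 to 8 and 45.7 over paralogs 9 to 13, where each of the 4 genes exceeded 6 FPKM. HOXB was weighted to the middle, with 10.4 FPKM over paralogs 1 to 3, 42.2 over paralogs 4 to 8 and 20.4 over HOXB9 and HOXB13. By paralog group, group 9 had the largest sum, 32.2 FPKM, and group 6 followed with 21.4 FPKM. Group 12, which exists only in HOXC and HOXD, had the smallest, 0.00999 FPKM. The highest genes had a level above that of 88.5% (HOXB6), 88.1% (HOXB9) and 87.4% (HOXA10) of the 16600 protein-coding genes of the table.

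**Figure D2:**
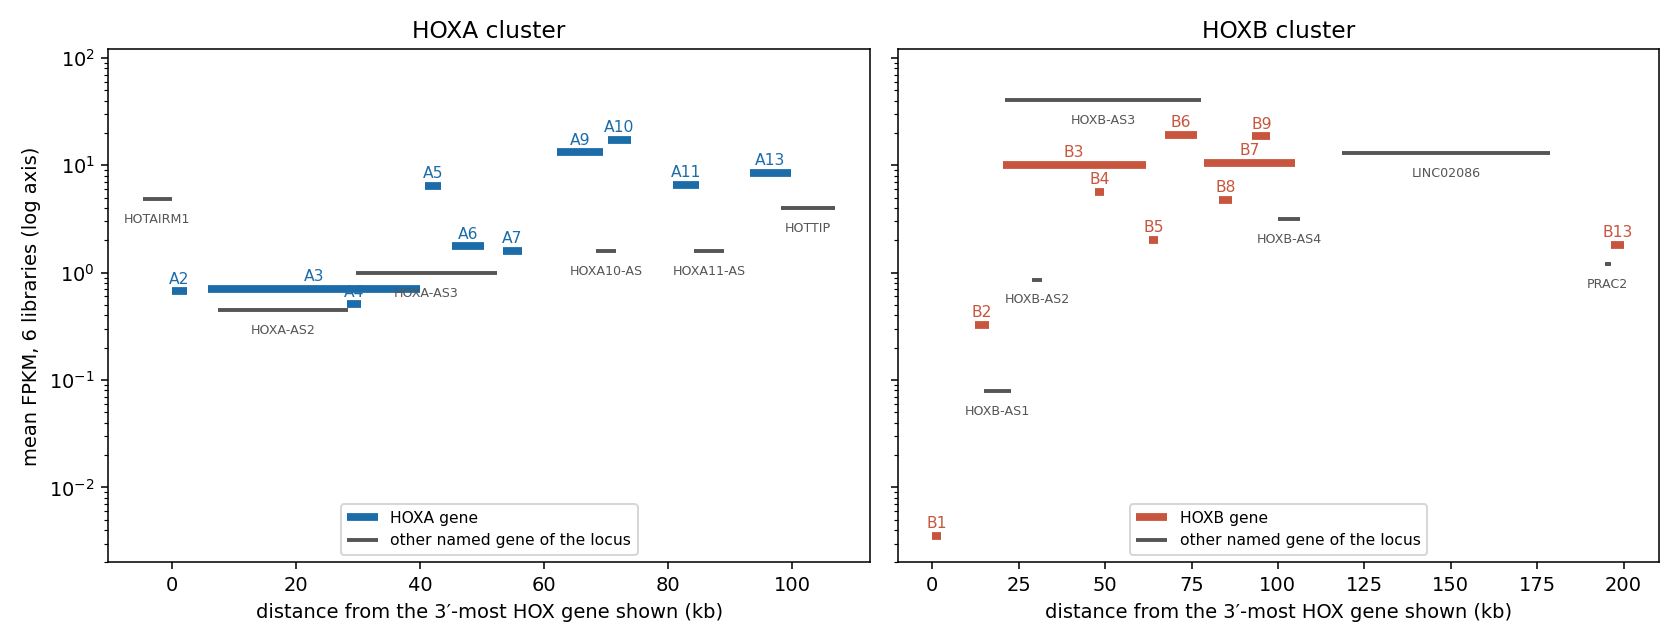
Mean FPKM over the 6 libraries (log axis) against distance along the HOXA (left) and HOXB (right) clusters in kb from the 3′-most HOX gene shown; thick coloured lines are HOX genes and thin grey lines other named genes of the locus. The posterior HOXA genes lie above the anterior ones, and HOXB1 lies far below its neighbours.

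In order of level, HOXB6, HOXB9 and HOXA10 formed a top group whose ranges overlapped (19.3, 18.6 and 17.4 FPKM). HOXA9 followed at 13.2 FPKM, below every library of HOXA10 and above every library of HOXB7. The 7 genes from HOXB7 (10.5 FPKM) to HOXB8 (4.78 FPKM) formed a run in which each gene's range met that of the next, as did the 5 genes from HOXB5 (2.02 FPKM) to HOXA7 (1.60 FPKM). A step without overlap then separated HOXA7 from HOXA3 (0.707 FPKM), and below it no neighbours in the order were separated.

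Among the posterior HOXA genes, HOXA10, which patterns the lumbar region and the uterus, had 17.3, 16.7 and 16.3 FPKM in the TGFb_TFA libraries, against 16.4, 19.8 and 17.8 FPKM in the TGFb libraries. HOXA9, known for driving leukaemia together with MEIS1, had 13.0, 13.6 and 11.6 FPKM in TGFb_TFA and 12.8, 14.2 and 13.9 FPKM in TGFb. Both genes varied little and their groups overlapped. HOXA11, a regulator of kidney and forearm development, had 6.32, 7.12 and 5.25 FPKM in TGFb_TFA and 6.36, 7.02 and 7.35 FPKM in TGFb. HOXA13 had 9.38, 9.91 and 5.00 FPKM in TGFb_TFA and 9.93, 6.88 and 10.3 FPKM in TGFb. The lowest HOXA11 and HOXA13 values were in TGFb_TFA 3, and the groups overlapped for both.

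Of the middle HOXA genes, HOXA5, a regulator of lung and upper trunk development, had 7.89, 6.18 and 5.83 FPKM in TGFb_TFA and 6.84, 5.10 and 6.85 FPKM in TGFb. Its groups overlapped, and its highest value was in TGFb_TFA 1. HOXA7, a trunk gene, had 1.61, 1.77 and 1.33 FPKM in TGFb_TFA and 1.85, 1.43 and 1.60 FPKM in TGFb, again overlapping. HOXA6, its neighbour in the trunk domain, had 1.48, 1.75 and 1.28 FPKM in TGFb_TFA and 2.17, 1.78 and 2.09 FPKM in TGFb. Every TGFb_TFA value of HOXA6 lay below every TGFb value, with a gap of 1.75 to 1.78 FPKM between the nearest libraries.

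In HOXB, HOXB6 had 18.7, 21.5 and 18.9 FPKM in TGFb_TFA and 19.9, 18.9 and 17.6 FPKM in TGFb. HOXB9, the most posterior member of the main HOXB block, had 18.8, 19.0 and 12.9 FPKM in TGFb_TFA and 19.3, 18.4 and 23.4 FPKM in TGFb. The HOXB6 groups overlapped around a common level, and the HOXB9 groups overlapped with the lowest value in TGFb_TFA 3. HOXB7, a trunk gene, had 10.7, 9.61 and 10.3 FPKM in TGFb_TFA and 11.3, 10.5 and 10.5 FPKM in TGFb. HOXB8, the gene with the extended miR-196 site above, had 5.25, 5.05 and 3.33 FPKM in TGFb_TFA and 4.94, 4.88 and 5.25 FPKM in TGFb. HOXB7 was the steadiest of these genes, and HOXB8 was even across libraries apart from the low TGFb_TFA 3.

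HOXB3, a hindbrain gene, had 11.2, 10.6 and 7.55 FPKM in TGFb_TFA and 10.9, 9.10 and 11.0 FPKM in TGFb. HOXB4, known for expanding blood stem cells, had 5.82, 5.68 and 4.33 FPKM in TGFb_TFA and 6.83, 5.81 and 5.35 FPKM in TGFb. Both overlapped between groups and were lowest in TGFb_TFA 3. HOXB5, which acts in the enteric nervous system, had 1.58, 2.01 and 1.62 FPKM in TGFb_TFA and 2.37, 1.83 and 2.74 FPKM in TGFb. HOXB13, a marker of prostate and the posterior gut, had 2.15, 2.03 and 1.77 FPKM in TGFb_TFA and 1.60, 1.35 and 2.02 FPKM in TGFb. HOXB5 values were mostly lower and HOXB13 values mostly higher in TGFb_TFA, and for each gene 1 TGFb library lay inside the TGFb_TFA range.

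**Figure D3:**
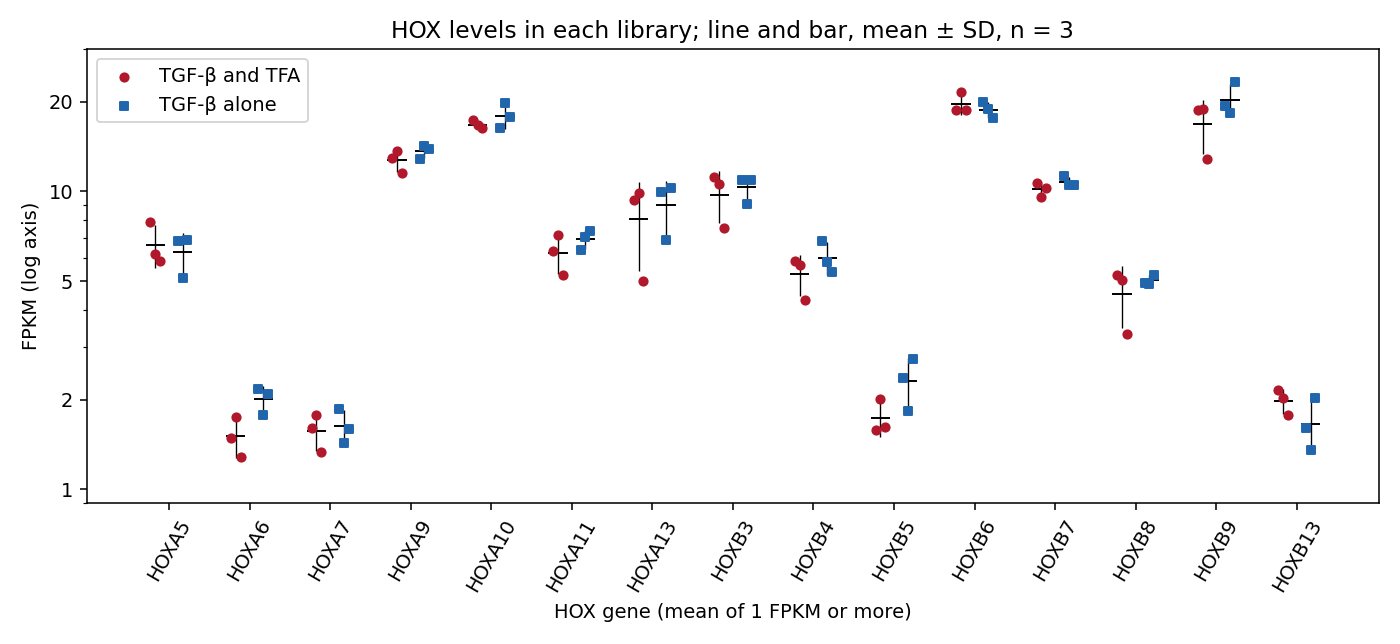
FPKM (log axis) of 15 of the 16 HOX genes at a mean of 1 FPKM or more in each library, TGF-β and TFA (circles) beside TGF-β alone (squares), with the mean and SD of 3 libraries. HOXA6 is the only gene shown whose groups do not overlap, and the third circle, TGFb_TFA 3, is the lowest value of most genes.

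The remaining HOXA and HOXB genes were low. HOXA3 averaged 0.707, HOXA2 0.669 and HOXA4 0.507 FPKM, all above 0 in every library, and HOXB2 averaged 0.328 FPKM. HOXB1, the hindbrain gene at the 3′ end of its cluster, was listed at 0 in 5 libraries and at 0.0212 FPKM in TGFb_TFA 3. In HOXC, HOXC6 was highest (0.310 to 0.503 FPKM over the libraries), HOXC8, HOXC10 and HOXC11 averaged 0.101 to 0.152 FPKM, and the other 5 genes averaged 0.0515 FPKM or less. In HOXD, HOXD8, HOXD9, HOXD10, HOXD11 and HOXD13 averaged 0.176 to 0.345 FPKM, and the other 4 genes averaged 0.0635 FPKM or less. HOXC10, a lumbar gene, had 0.165, 0.222 and 0.166 FPKM in TGFb_TFA and 0.0726, 0.133 and 0.153 FPKM in TGFb, so that its groups did not overlap.

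Low and trace levels of HOXC and HOXD genes stand beside low and trace levels of genes of other cell types. Of 12 measured markers of colon epithelium, 9 reached a mean of 1 FPKM, EPCAM, KRT8, KRT18 and KRT19 among them, while VIL1, GPA33 and LGALS4 stayed below it. The summed FPKM of 9 fibroblast markers was 0.448 to 2.37 in TGFb_TFA and 0.0630 to 0.367 in TGFb. COL3A1, DCN and LUM were at 0 in every TGFb library and in TGFb_TFA 1, and LUM also in TGFb_TFA 2. PDGFRB, FAP and THY1 were above 0 in libraries of both groups, and their groups overlapped. All 6 fibroblast markers that could be tested were fitted higher in TGFb_TFA, and none was called. Of these, 3 had an unadjusted p under 0.05 in edgeR, against 1.83% of all genes tested. In 2 of the 6, COL1A2 and COL6A3, every TGFb_TFA value lay above every TGFb value. That is 33.33%, against 7.95% of all genes tested with groups that do not overlap. Sums of 8 endothelial markers were 2.04 to 2.38 in TGFb_TFA and 1.55 to 1.99 in TGFb. EGFL7 led these sums with a mean of 1.29 FPKM, above trace level, and CLDN5 was fitted lower in TGFb_TFA (log2 fold change -0.76, not called). Of the 6 endothelial markers tested, 2 (VWF and KDR) were higher in TGFb_TFA without overlap, and neither was called. Sums of 6 blood cell markers were 0.346 to 0.697 in TGFb_TFA and 0.360 to 0.538 in TGFb. The part of such RNA in the low and trace HOX values was not tested.

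The comparison of TGF-β and TFA with TGF-β alone called no HOX gene. Of the 39 genes, 29 passed the filter on low counts, all 11 of HOXA, 9 of HOXB, 4 of HOXC and 5 of HOXD; HOXB1, HOXC4, HOXC5, HOXC9, HOXC12, HOXC13, HOXD1, HOXD3, HOXD4 and HOXD12 did not. By edgeR's quasi-likelihood test with Benjamini-Hochberg adjustment over 18265 genes, 0 of 29 were called, against 0.0109% of all genes tested, and DESeq2 also called 0, against 0.0712% of all genes. Without adjustment, 0 of 29 reached a p under 0.05, against 1.83% of all genes. The lowest unadjusted p was 0.0984, for HOXA6, and every adjusted p was 0.9997. The median log2 fold change (TGFb_TFA over TGFb) was -0.03 over the 29 genes and 0.01 over all genes tested, and 14 were fitted above 0 and 15 below.

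The width of the 95% intervals shows what these libraries could resolve. For the 8 highest genes (HOXB6, HOXB9, HOXA10, HOXA9, HOXB7, HOXB3, HOXA13 and HOXA11) all interval bounds lay between -0.70 and 0.40 on the log2 scale. For the 16 genes at 1 FPKM or more the bounds lay between -0.87 and 0.72, with 4 genes fitted above 0 and 12 below. For the 13 tested genes under 1 FPKM they ran from -3.06 to 2.05, so that much larger differences lay within the intervals, the widest being those of HOXC8 and HOXD11.

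Among single genes, HOXA6 averaged 1.50 ± 0.24 FPKM in TGFb_TFA and 2.01 ± 0.20 FPKM in TGFb (SD, n = 3 each), a log2 fold change of -0.39 (SE 0.21, 95% interval -0.87 to 0.09). HOXB5 averaged 1.74 ± 0.24 FPKM in TGFb_TFA and 2.31 ± 0.45 FPKM in TGFb, a log2 fold change of -0.38 (SE 0.21). HOXB13 averaged 1.98 ± 0.19 FPKM in TGFb_TFA and 1.66 ± 0.34 FPKM in TGFb, a log2 fold change of 0.29 (SE 0.18). HOXB9 averaged 16.9 ± 3.5 FPKM in TGFb_TFA and 20.4 ± 2.6 FPKM in TGFb, a log2 fold change of -0.25 (SE 0.15). None of these intervals left out 0, and HOXB13 was at 0.17 without TGFb 2. The extremes of the fit were low genes: HOXD11, at -1.20 (SE 0.80), and HOXC10, at 0.66 (SE 0.48). HOXC10 was at 0.41 without TGFb 1, and limma on log2(FPKM + 0.5) gave it 0.14, on a scale that understates the change of low genes. Groups that did not overlap in FPKM were found for 2 of 29 HOX genes, HOXA6 (lower) and HOXC10 (higher), which is 6.90% against 7.95% of all genes tested (3.73% lower and 4.22% higher).

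**Figure D4:**
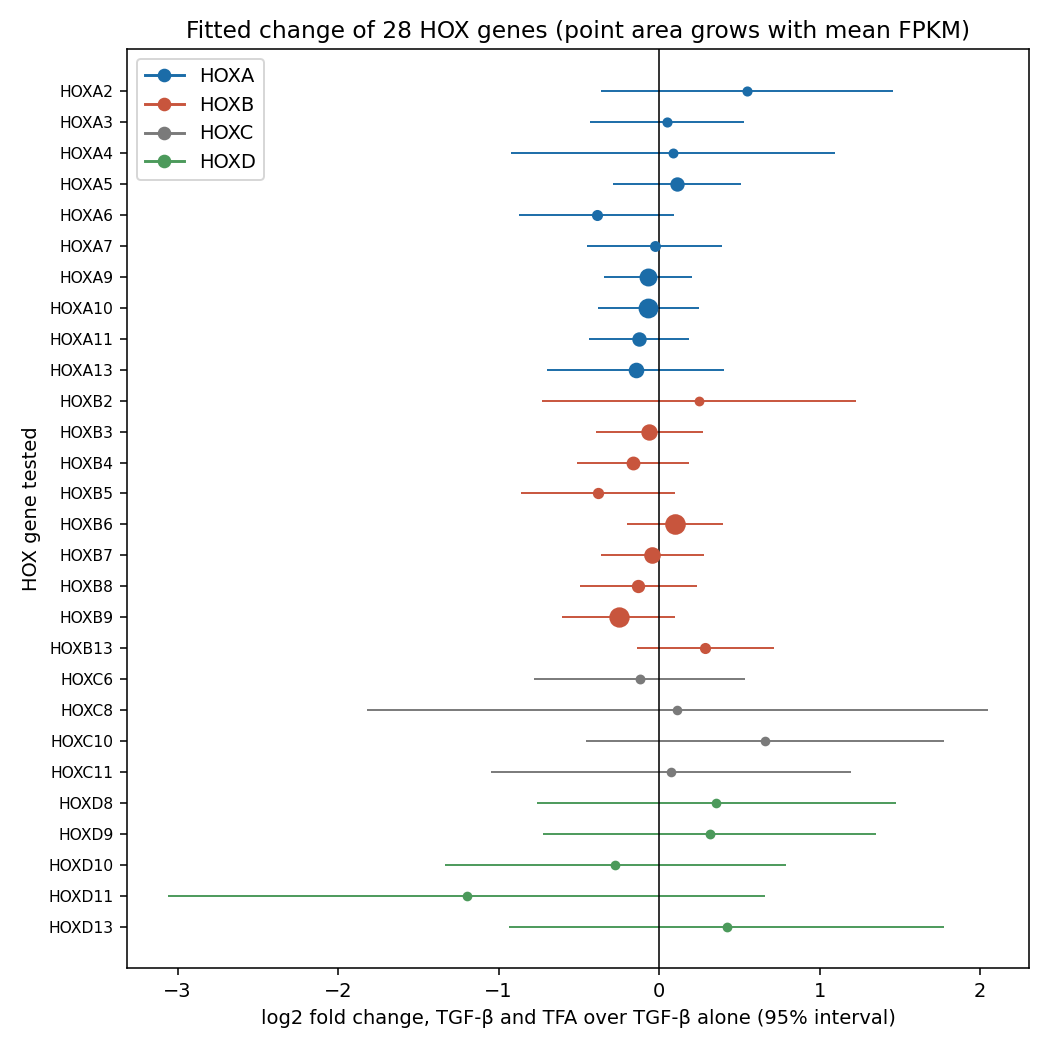
Log2 fold change of TGF-β and TFA over TGF-β alone (points, edgeR) with 95% intervals (lines) for 28 of the 29 tested HOX genes, ordered by cluster and paralog group; point area grows with mean FPKM. All intervals shown cross 0, and the widest are those of HOXC8 and HOXD11.

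The share of each cluster in the summed level also overlapped between the groups. The summed HOX level was 137.3, 139.4 and 113.0 FPKM in TGFb_TFA, against 139.1, 133.0 and 143.8 FPKM in TGFb. HOXA made up 44.1 ± 0.1% of it in TGFb_TFA and 43.9 ± 1.0% in TGFb, and HOXB made up 54.2 ± 0.1% in TGFb_TFA and 54.5 ± 1.2% in TGFb (SD, n = 3 each). Over the 39 genes, Pearson's r of log2(FPKM + 0.5) was 0.986 to 0.995 between libraries of different groups (9 pairs) and 0.990 to 0.997 between libraries of a group (6 pairs); genes are not independent replicates, and the range of levels sets much of such an r.

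The low sum was that of TGFb_TFA 3, a library that also stood apart from the others by transcript length. Its genes in the shortest 10% of effective lengths deviated by a median of 0.36 on the log2 scale from their mean over libraries, and those in the longest 10% by -0.33, while the other 5 libraries lay between -0.12 and 0.10 for the shortest and between -0.16 and 0.20 for the longest. In deposited FPKM it was the lowest library for 11 of the 16 expressed HOX genes and the highest for none. Of these 16, 14 were below the median effective length, with a median deviation of -0.06 in TGFb_TFA 3 and 9 of them below 0, and the 2 above it had a median deviation of -0.40. The deviations and the edgeR fits use TMM scaling between libraries, which FPKM lack. TGFb_TFA 3 had a TMM factor of 0.895, against 0.993 to 1.042 in the other 5 libraries. The parts of transcript length and of this scaling in the low sum were not tested. Without TGFb_TFA 3, the log2 fold change of HOXA13 was 0.06 in place of -0.15, and that of HOXB3 was 0.03 in place of -0.06. That of HOXB9 was -0.15 in place of -0.25, and that of HOXD11 was -2.31 in place of -1.20 (unadjusted p = 0.0195 in edgeR, not called). HOXD11 also moved to -0.78 without TGFb_TFA 2. The fitted sign also turned without TGFb_TFA 3 in HOXA7 (0.01), HOXB2 (-0.23) and HOXC11 (-0.12).

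Several HOX genes share exons with neighbours (GENCODE 29), and no source used here says whether counting used the strand. HOXA7 shares 1507 exon bases (62.5% of its own) and HOXA6 shares 505 (39.3%) with the antisense gene HOXA-AS3. Reads of either gene and of this antisense partner may thus not be told apart. HOXA7, with the larger overlap, had a log2 fold change of -0.03, and its groups overlapped. HOXA-AS3 had 0.791, 0.865 and 0.889 FPKM in TGFb_TFA and 0.948, 1.09 and 1.40 FPKM in TGFb, below in every library as HOXA6 was, with a log2 fold change of -0.39 (SE 0.20, unadjusted p = 0.0906 in edgeR). HOXB6, the highest HOX gene, likewise shares 425 exon bases with the antisense gene HOXB-AS3, which averaged 40.65 FPKM over the 6 libraries. The level and rank of HOXB6, and the sums that hold it, thus have the same limit. On the same strand, HOXB3 shares 433 bases with HOXB6 and 159 with HOXB4, and HOXD10 shares 452 with HOXD11. Summed, HOXB3, HOXB4 and HOXB6 gave a log2 fold change of -0.01 and HOXD10 with HOXD11 gave -0.66, neither called. The gene ENSG00000257184, listed under the clone name AC004080 and spanning HOXA9 and HOXA10, had 0.287, 0.212 and 0.243 FPKM in TGFb_TFA and 5.40, 0.943 and 0.416 FPKM in TGFb. Its log2 fold change was -3.11 (SE 0.92, unadjusted p = 0.0106 in edgeR, not called), its values in TGFb were led by TGFb 1, and it was singled out after its values were seen. Summed with HOXA9 and HOXA10, it left a log2 fold change of -0.09.

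Other listed genes of the clusters, noncoding apart from PRAC2, which the table types as protein-coding, followed the same map. Of 28 listed, 21 were in the table, 8 averaged 1 FPKM or more, and none of the 8 lay in HOXC or HOXD. HOXB-AS3, antisense to the middle of HOXB, was the highest, with 37.3, 34.5 and 46.6 FPKM in TGFb_TFA and 41.5, 46.7 and 37.4 FPKM in TGFb. The row of the MIR196A1 hairpin averaged 4.86 FPKM over the 6 libraries, but it does not measure the mature miRNA. The hairpin lies inside the spans of HOXB7 (10.5 FPKM), on its own strand, and HOXB-AS4 (3.15 FPKM), on the other. HOTTIP, a transcript at the HOXA13 end known to help keep posterior HOXA genes active, averaged 4.02 FPKM. HOTAIRM1, a noncoding HOXA transcript, had 3.66, 4.64 and 4.26 FPKM in TGFb_TFA and 4.94, 5.48 and 5.85 FPKM in TGFb, groups that did not overlap, with a log2 fold change of -0.34 (SE 0.17, unadjusted p = 0.0867 in edgeR). HOTAIR, the HOXC transcript known for targeting Polycomb, averaged 0.0878 FPKM. Of the 14 tested, none was called or reached an unadjusted p under 0.05, 8 were fitted above 0 and 6 below, and the median was 0.02.

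Genes that work with or on the HOX genes were present and gave no call. Of 11 TALE homeodomain genes, 10 were tested, with a median log2 fold change of 0.06, 7 fitted above 0 and 3 below. The highest were PBX2 (5.38 FPKM, log2 fold change -0.10), TGIF1 (5.33 FPKM, 0.12) and PKNOX1 (5.25 FPKM, 0.00), whereas MEIS1, the partner of HOXA9 in leukaemia, averaged 0.00505 FPKM and was not tested. CDX2, the intestinal factor of the ParaHox family that acts upstream of posterior HOX genes, had 11.9, 13.0 and 9.74 FPKM in TGFb_TFA and 9.77, 9.29 and 10.9 FPKM in TGFb, a log2 fold change of 0.23 (SE 0.12). PDX1 averaged 1.06 FPKM and EVX1, next to HOXA13, 0.260 FPKM, with log2 fold changes of -0.27 and -0.77. These 3 were the only listed ParaHox and EVX genes in the table.

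All 29 Polycomb genes listed were tested, 18 fitted above 0 and 11 below, with a median log2 fold change of 0.02. BMI1, a subunit of the complex that ubiquitinates histone H2A, averaged 28.0 FPKM (0.08), and the histone-binding subunits RBBP7 and RBBP4 averaged 24.4 FPKM (0.04) and 15.3 FPKM (0.01), with log2 fold changes in parentheses. All 22 Trithorax and associated genes were tested, 8 fitted above 0 and 14 below, with a median of -0.10. Their summed FPKM was 163.2, 162.4 and 135.8 in TGFb_TFA and 152.8, 139.9 and 154.5 in TGFb. That of the Polycomb genes was 207.2, 207.5 and 159.7 in TGFb_TFA and 200, 174.8 and 204.1 in TGFb. Both sums were lowest in TGFb_TFA 3, the library with the length shift, and its part in these fits was not tested. DPY30, a core subunit of the H3K4 methyltransferases, averaged 38.4 FPKM (0.33), PSIP1, which tethers the MLL complex to chromatin, 35.8 FPKM (-0.02), and MLLT3, a reader of acetylated histones, 23.1 FPKM (0.02). DPY30 had 36.7, 37.3 and 52.4 FPKM in TGFb_TFA and 33.5, 39.3 and 31.35 FPKM in TGFb, so its groups overlapped and TGFb_TFA 3 was highest. In neither list was a gene called or at an unadjusted p under 0.05, against a background of 1.83%.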

How the data were processed

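Poly(A) RNA was sequenced in 6 libraries, 3 per group, from stranded (dUTP) libraries with molecular identifiers in the adapters, per the labels' protocols. Listed in the submitters' processing notes, without roles, are StringTie 1.3.4d, HISAT2 2.0.4 and cutadapt 1.9, and GRCh38 as build. The deposited table holds, for each gene and library, FPKM and an estimated count, per the file headers. The authors' estimated counts are whole numbers, totalling 60361756 to 68745953 per library; a count of 4 was more frequent (1032 to 1271 genes) than 3 (601 to 685) or 5 (345 to 396), so a fragment may add several counts and precision is overstated by the totals.

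Estimated counts were tested with edgeR 4.0.16 (R 4.3.3): filterByExpr, TMM, a quasi-likelihood fit with group only, the 2-sided glmQLFTest, and p-values adjusted by Benjamini-Hochberg over 18265 genes, called at an adjusted p under 0.05. The standard error is the log2 fold change over the square root of F. Levels are deposited FPKM. Alternatives used DESeq2 1.42.0 and limma 3.58.1. HOX genes averaging 1 FPKM or more, at an unadjusted p under 0.05 or with groups that do not overlap are given library by library; in each associated list the 3 highest genes and any at an unadjusted p under 0.05 are named. The fibroblast genes at that p were COL1A1, COL1A2 and COL6A3. The values of 1 HOX gene are not reported here, and it stays in all counts and sums over HOX genes except those over settings. Genes named beside these were chosen after their values were seen. Members and lists were chosen with earlier results of these data known. No pair of libraries within a group looked like a duplicate (lowest chi-square per degree of freedom 12.0). Promoter and miRNA sequences are from RefSeq (GRCh38.p14); all 39 genes were matched in GENCODE 29 by identifier, 11 with the same start and end, and positions of genes are the table's own.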

Additional observations from a re-analysis of the deposited data

How the results depend on the processing

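No HOX gene was called under any of the 17 settings tried, among them DESeq2's test and size factors, limma on log2(FPKM + 0.5), no filter, counts divided by 4, a length correction and each library left out. Of 471 log2 fold changes, 3 had an unadjusted p under 0.05: HOXD11 without TGFb_TFA 3 (-2.31) and without TGFb 1 and TGFb_TFA 3 (-2.18), and HOXB5 without TGFb 2 (-0.51). In 13 of 28 genes the sign never changed, HOXA6, HOXB5, HOXB9, HOXB13 and HOXC10 among them. With TGFb 1 and TGFb_TFA 3 left out, the sign turned in HOXA13 (0.12), HOXA3 (-0.025), HOXA7 (0.097), HOXB2 (-0.081), HOXB3 (0.057), HOXC11 (-0.44) and HOXD13 (-0.29). HOXA4 turned to -0.027 with log2(FPKM + 0.1) and to -0.032 with the replicate block, and HOXB6 to -0.011 when summed with its overlapping genes. For genes whose sign turned in at least 1 fit with 1 library left out, ranges over all such fits follow. In HOXA they were -0.14 to 0.022 in HOXA10, -0.30 to 0.055 in HOXA13 and -0.046 to 0.17 in HOXA3. They were -0.28 to 0.42 in HOXA4, -0.0049 to 0.18 in HOXA5 and -0.10 to 0.067 in HOXA7. In HOXB they were -0.23 to 0.46 in HOXB2, -0.14 to 0.030 in HOXB3 and -0.13 to 0.019 in HOXB7. Those of HOXC were -0.23 to 0.30 in HOXC11, -0.30 to 0.029 in HOXC6 and -0.37 to 1.15 in HOXC8. That of HOXD9 was -0.025 to 0.56. The cause was not tested.

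The count of 16 genes at 1 FPKM became 19 at 0.5 FPKM, 12 at 2 FPKM and 19 at 1 CPM, and stayed 16 with each library left out. Deviations from the group means of libraries with the same number correlated at 0.04, -0.12 and -0.13. The largest correlation, 0.21, was between TGFb_TFA 3 and TGFb 2. With 3 libraries per group and the length shift of TGFb_TFA 3, these values cannot decide whether the numbers pair the libraries. With the replicate block 0 HOX genes and 1 gene in all were called, against 2 without it, and DESeq2 called 13.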
